A study of Sus scrofa with 12 samples.

Results

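The genes described here are 10 protein genes of the pig mitochondrial genome: ND1, ND2, ND3, ND4, ND5, CYTB, COX1, COX2, COX3 and ATP6. They were chosen by name, not by their values, from a count table of 25880 genes, of which 20341 had at least 1 count. Each name matched 1 Ensembl gene, and all 10 passed the low-count filter of the test across 14262 genes. The mitochondrial genome encodes 13 proteins, and the other 3 genes, ATP8, ND4L and ND6, are used here for comparison only.

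RNA came from the Semimembranosus muscle of 12 Italian Large White pigs raised under the same conditions and on the same diet. Per the paper, slaughter was spread over several days and libraries were sequenced in pairs on a lane. Which pigs shared a day or a lane, and the RNA integrity of each pig, are not given in the sources used here. Their part in the values was not tested. The high intramuscular fat (IMF) group held 6 pigs of 234 to 244 days, numbered 1 to 6, and the low IMF group held 6 pigs of 229 to 249 days, numbered 7 to 12. All weighed 150 to 160 kg, each group was labelled as 3 females and 3 castrated males, and 1 library was made per pig. The pigs were picked from the extremes of a larger population for their IMF, so the groups stand for extremes of 1 breed at 1 muscle and age.

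Mitochondrial DNA is transcribed as long RNAs that cover nearly a whole strand, and the protein genes are freed when the tRNAs between them are cut out. The mRNAs then receive a poly(A) tail, which in several genes also completes the stop codon, and their abundances differ in part because their stabilities do. The ND proteins are core subunits of complex I, which takes electrons from NADH. CYTB is the cytochrome b of complex III, COX1 to COX3 form the catalytic core of complex IV, which passes electrons to oxygen, and ATP6 is part of the proton channel of ATP synthase, complex V. Complexes I, III, IV and V also need subunits from nuclear genes, complex II is made of nuclear-encoded subunits alone, and oxidative muscle fibres carry more of all of them than fast glycolytic fibres.

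The library kit selected polyadenylated RNA, so the 3′ ends of these genes bear on what was captured. On the mitochondrial sequence of the RefSeq pig assembly Sscrofa11.1, which is 16613 bases long, 6 of the 10 genes (ND1, ND2, COX2, COX3, ND3 and ND4) end on a T that the tail extends to a stop codon. COX1, ATP6 and ND5 carry a full TAA and CYTB ends on AGA. The last 20 bases of 4 of them, all on the + strand, are shown 5′ to 3′ with the stop letters in capitals, 2 of each kind.
COX1, positions 8036 to 8055: catatatcaacctaaaaTAA
CYTB, positions 16462 to 16481: acaacctattaaaatgaAGA
COX3, positions 10564 to 10583: aatctattgatgaggatccT
ND1, positions 4857 to 4876: aagcattcccccacaatcaT

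Neighbouring genes also share bases. ATP8 and ATP6 overlap by 43 bases at positions 9120 to 9162, so a read there belongs to both genes. The shared stretch opens with the ATG of ATP6 and closes with the TAA of ATP8, and is in capitals because every base of it is shared.
ATP8 and ATP6: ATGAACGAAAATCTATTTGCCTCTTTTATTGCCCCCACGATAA
ND4L and ND4 share 7 bases, ATP6 and COX3 share 1, and ND5 shares 17 with ND6, which lies on the other strand. How the authors' counting treated reads that fall on 2 genes is not given in the sources used here.

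Copies of mitochondrial DNA also lie in the nuclear genome, and reads from a near-identical stretch can align to either place. A BLAST search of the mitochondrial sequence against the nuclear chromosomes of Sscrofa11.1 found 355 matches, of which 9 were at least 98% identical. Windows of 100 bases, the length of a read, were compared with the closest nuclear copy. Among the 10 genes, the share of windows within 2 differences of a nuclear copy was highest in ND1, at 64.1%. It was 32.8% in COX1, 21.9% in COX2 and 19.6% in ND2. In the other 6 genes it was at most 0.813%, and it was 0 in ATP6, ND4 and CYTB. ATP8 had the highest share of all 13 genes, 91.4%, and its first 196 bases are set beside their copy on chromosome 9 because ATP8 also varied most among pigs. Capitals mark the differing bases, both lines read on the + strand.
ATP8, mitochondrial positions 8959 to 9154: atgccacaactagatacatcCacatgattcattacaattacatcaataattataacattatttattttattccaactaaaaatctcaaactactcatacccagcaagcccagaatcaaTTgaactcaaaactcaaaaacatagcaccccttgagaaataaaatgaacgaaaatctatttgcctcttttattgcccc
Nuclear copy, chr9:4701993-4702188: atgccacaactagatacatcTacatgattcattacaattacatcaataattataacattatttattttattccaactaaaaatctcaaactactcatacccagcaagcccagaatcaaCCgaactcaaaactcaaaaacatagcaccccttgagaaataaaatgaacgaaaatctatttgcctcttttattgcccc
The 3 differences are C21T, T119C and T120C, counted from 1 at the first base of ATP8, with the mitochondrial base given first. The authors aligned to the Ensembl copy of the same pig assembly, whose mitochondrial part was not compared here with the RefSeq one. How they treated reads with several alignments is not given in the sources used here, and the part of nuclear copies in the values below was not tested.

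A pig had between 131048805 and 178013997 counts over all genes. TMM normalization, which scales libraries on the bulk of genes, gave factors between 0.810 in pig 7 and 1.12 in pig 12. Counts on 2 Y chromosome genes, EIF1AY and KDM5D, went against the labelled sex in 6 pigs (2 with high and 4 with low IMF), so the identity of single pigs is uncertain and an exchange of pigs between groups cannot be told apart from the groups as labelled. None of 5 skeletal muscle markers tested was lower in the low IMF group. MYBPC2 was higher there at an unadjusted p of 0.05 or less, as were 5.38% of all genes tested. The summed level of the markers was 34340 to 50090 CPM (counts scaled to a library total of 1000000) in the high and 37358 to 65799 in the low IMF group. The medians of that sum were 39726 and 46382 CPM. Pigs 1, 2 and 10 stood apart in the proportions among mitochondrial genes, as described below, and the results on the 10 genes are given with and without them.

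The 10 genes together took up a larger share of all counts in the high IMF group on average, but the groups overlapped. Pigs 1 to 6 of the high IMF group had 3.96%, 3.68%, 4.28%, 4.32%, 4.58% and 5.16% of their counts on these genes. Pigs 7 to 12 of the low IMF group had 3.13%, 2.48%, 2.72%, 4.71%, 3.71% and 3.89%. High IMF pigs averaged 4.33% ± 0.512 (SD, n = 6) and low IMF pigs 3.44% ± 0.825 (SD, n = 6), a difference of -0.888 percentage points, low minus high. Pigs 7, 8 and 9 lay below every high IMF pig, whereas pig 10 lay above all high IMF pigs but pig 6. The lowest and the highest pig, 8 and 6, differed 2.08-fold. In a bulk sample, fewer cells or fibres of a type and less RNA per cell cannot be told apart.

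The difference of the shares was -1.40 points without pigs 1, 2 and 10. Pigs 1 and 2 had the lowest shares of the high IMF group and pig 10 the highest of the low IMF group, so leaving them out widens the difference by construction. It was -0.478 points without the 6 pigs whose Y chromosome counts went against their label, which left pigs 11 and 12 alone in the low IMF group. The most abundant row of the table, which carries no symbol here, took up 9.71% to 16.7% of the counts, and with its counts left out of the total the difference was -1.10 points.

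**Figure D1:**
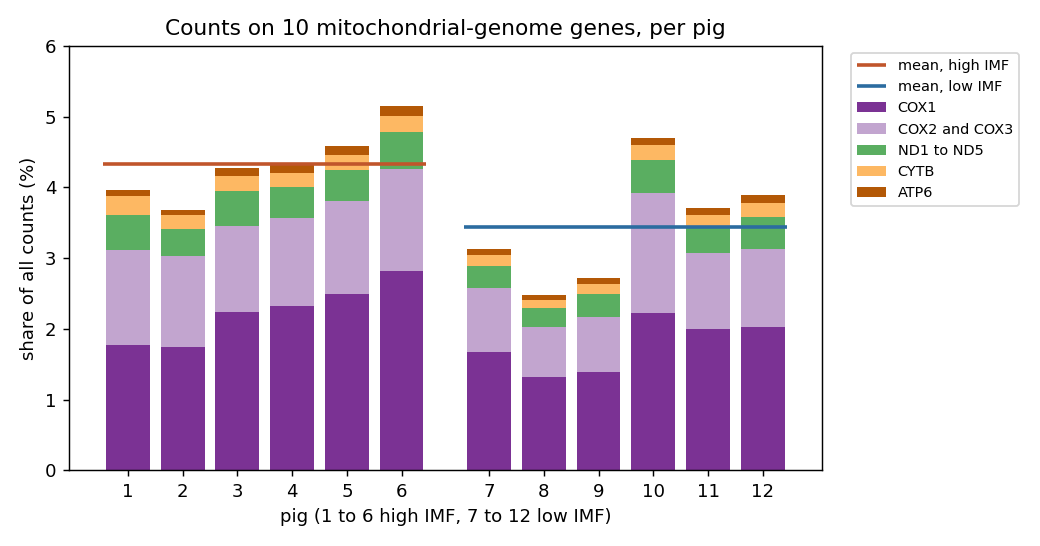
Share of all counts (%, vertical axis) on the 10 genes in each pig (horizontal axis), stacked by gene group, with a line at each group's mean (4.33% and 3.44%). COX1 is the largest block in every pig, and pigs 7, 8 and 9 lie below all high IMF pigs while pig 10 does not.

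The place of pig 7 of the low IMF group changed with the scaling. Its share of all counts, 3.13%, was the 10th of 12, yet its TMM-normalized level summed over the 10 genes was 38671 CPM, the 6th of 12 and within its group below pig 10 alone, at 51252 CPM. The TMM factor of 0.810, the lowest of the 12, lies between these readings. In the mapping summary of the study, the library of pig 7 also had the lowest part of uniquely aligned reads and the highest parts of multiply aligned and unaligned reads, and what this does to its values was not tested. For COX1, pig 7 had 1.68% of all counts, under every high IMF pig, but 20708 CPM after TMM, above pigs 1 and 2. Its summed level of nuclear subunits of the 5 complexes was 8222 CPM and that of slow fibre markers 5974 CPM, both the highest of the 12 pigs. Its ratio of mitochondrial-genome to nuclear subunits was 4.70, against a range of 5.78 to 7.69 in the high IMF group. Pigs 8, 9 and 11 of its own group also lay below that range, at 4.42, 5.48 and 5.29. Without pig 7, the low IMF group had a share of 3.50% ± 0.907 (SD, n = 5), and the difference from the high IMF group was -0.827 points.

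Per kilobase of gene, the 3 COX genes were the most abundant. The mean TMM-normalized level over the 12 pigs was 13060 CPM per kb for COX1, 9866 for COX3 and 5971 for COX2, and each lay above the next gene in 12 of 12 pigs. CYTB, at 1702 CPM per kb, and ATP6, at 1513, did not keep their order, CYTB being the higher in 8 of 12 pigs. ATP6 lay above ND4, at 1070, in 12 of 12 pigs. ND4 lay above ND1, at 818, in 9 of 12. The complex I genes closed the order, with ND1 above ND3, at 727, in 3 of 12 pigs only, so that its higher mean rests on those pigs. ND3 lay above ND5, at 580, in 12 of 12 pigs, and ND5 above ND2, at 545, in 9 of 12. COX1 to COX3 made up 78.7% to 83.4% of the counts on the 10 genes and the ND genes 9.54% to 12.3%.

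In complex I, all 5 ND genes had lower mean levels in the low IMF group. Here and below, log2FC is the log2 fold change, low over high IMF, of edgeR's quasi-likelihood test, and levels are TMM-normalized CPM. ND3, a small subunit near the quinone site, had 221, 287 and 373 CPM as the lowest, median and highest value of the high IMF group and 134, 215 and 309 in the low IMF group. The groups overlapped, with 3 low IMF pigs below every high IMF pig. Its log2FC was -0.41 (SE 0.18), with an unadjusted p of 0.0454 and a Benjamini-Hochberg adjusted p of 0.469.

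ND5, one of the proton-pumping subunits, had 946, 1111 and 1576 CPM in the high and 668, 926 and 1167 in the low IMF group, again as lowest, median and highest. Here too 3 low IMF pigs lay below every high IMF pig. The log2FC was -0.37 (SE 0.15), the edgeR unadjusted p was 0.0279 and the adjusted p 0.441. ND3 and ND5 were the only 2 of the 10 genes with an unadjusted p of 0.05 or less.

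ND2, another pumping subunit, had 478, 664 and 776 CPM in the high and 299, 460 and 834 in the low IMF group. Pig 10 had the highest ND2 level of all 12 pigs, while 4 low IMF pigs lay below every high IMF pig. Its log2FC was -0.39 (SE 0.21, edgeR unadjusted p = 0.0876), and -0.61 without pig 10 (edgeR unadjusted p = 0.00291). Without pig 8 the log2FC of ND2 was -0.27 (edgeR unadjusted p = 0.194). ND4, the third pumping subunit, had 780, 1829 and 2115 CPM in the high and 974, 1372 and 1618 in the low IMF group. No low IMF pig lay below the lowest high IMF pig, pig 2, and the log2FC was -0.28 (SE 0.23, edgeR unadjusted p = 0.253). It was -0.42 without pig 2 (edgeR unadjusted p = 0.0436) and -0.18 without pig 6 (edgeR unadjusted p = 0.454).

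ND1, which lines the quinone chamber, varied most of the 10 genes, 5.23-fold between the highest and lowest pig. In the high IMF group, pigs 1 and 2 had 1518 and 1039 CPM and pigs 3 to 6 had 644, 676, 668 and 674. In the low IMF group, pig 10 had 1809 CPM and pigs 7, 8, 9, 11 and 12 had 579, 346, 411, 509 and 503. So 5 low IMF pigs lay below every high IMF pig and pig 10 above all of them. The log2FC of -0.33 carried an SE of 0.39, the widest of the 10 genes (edgeR unadjusted p = 0.409). Single pigs moved this value far in either direction. Without pig 10 the log2FC was -0.89 (edgeR unadjusted p = 0.00291). Without pig 1 it was -0.10 and without pig 8 -0.18 (edgeR unadjusted p = 0.801 and 0.645).

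CYTB had 1844, 2122 and 2552 CPM in the high and 1113, 1806 and 2369 in the low IMF group. Pig 1 was the highest and 4 low IMF pigs lay below every high IMF pig. The log2FC was -0.34 (SE 0.17, edgeR unadjusted p = 0.0599).

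The complex IV genes all had log2FCs below 0. COX1, which holds the site where oxygen is reduced, had 16768, 22549 and 29254 CPM in the high and 12070, 18998 and 24266 in the low IMF group, with 2 low IMF pigs below every high IMF pig (log2FC -0.31, SE 0.19, edgeR unadjusted p = 0.128). COX2, which accepts electrons from cytochrome c, had 4174, 4550 and 5053 CPM in the high and 2186, 3467 and 6630 in the low IMF group. For COX2, 5 low IMF pigs lay below every high IMF pig and pig 10 above all of them. Its log2FC was -0.32 (SE 0.22, edgeR unadjusted p = 0.174).

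COX3, the third core subunit, showed the same arrangement of pigs, with 7916, 8249 and 9905 CPM in the high and 4347, 6762 and 11829 in the low IMF group and a log2FC of -0.29 (SE 0.20, edgeR unadjusted p = 0.178). Without pig 10, the log2FC of COX2 was -0.58 and that of COX3 -0.51 (edgeR unadjusted p = 0.00240 and 0.00496). Without pig 8 they were -0.20 and -0.17 (edgeR unadjusted p = 0.359 and 0.373). ATP6 had the smallest difference, with 730, 1172 and 1467 CPM in the high and 657, 992 and 1158 in the low IMF group. A single low IMF pig, pig 8, lay below the lowest high IMF pig, and the log2FC was -0.23 (SE 0.19, edgeR unadjusted p = 0.245). Without pig 6 or pig 8 it was -0.13 (edgeR unadjusted p = 0.493 and 0.486).

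**Figure D2:**
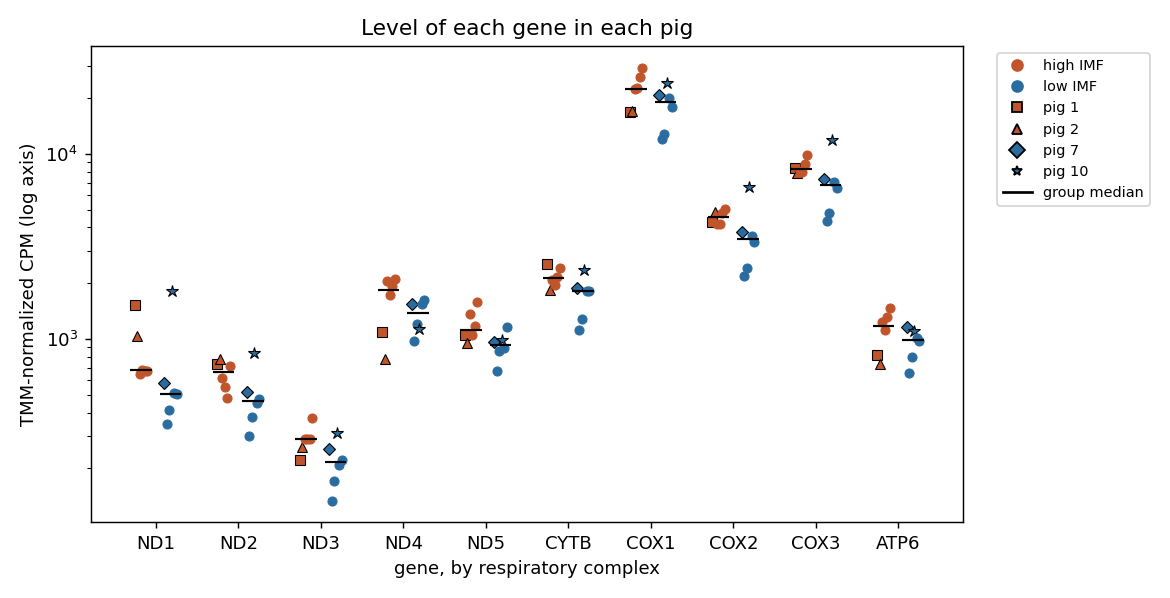
TMM-normalized CPM (log axis) of each gene in each pig, high IMF in orange and low IMF in blue, with the group medians as black lines and pigs 1, 2, 7 and 10 set off by marker shape. Pigs 1, 2 and 10 lie far above the rest in ND1 and low in ND4, and pig 7 lies near the top of the low IMF group.

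Across the 10 genes, the log2FC lay between -0.41 (ND3) and -0.23 (ATP6), with a median of -0.32, beside a median of -0.01 over the 14262 genes tested. All 10 lay below 0, as did 51.6% of the genes tested. The 10 genes come from the same transcripts and the same 12 pigs and are not independent readings. None was a differentially expressed gene (DEG, adjusted p at or under 0.05 and log2FC of at least 0.58 in size) and none of the 14262 genes was (0% called), the smallest adjusted p of the edgeR test being 0.190 beside 1486 genes with an unadjusted p of 0.05 or less. By DESeq2's Wald test on the same genes 58 genes were DEGs, but none of the 10. At an unadjusted p of 0.05 or less, 2 of the 10 were lower in the low IMF group, beside 5.04% of all genes tested. That number was 0 without pig 3, 6, 8 or 9, beside 4.46%, 3.34%, 3.97% and 4.11% of all genes then tested. It was 1 without pig 4, 5, 11 or 12, beside 4.77%, 4.43%, 4.99% and 4.32%, and 2 without pig 1 or 7, beside 5.68% and 4.12%. It was 4 without pig 2, beside 6.68%, and 8 without pig 10, beside 5.00%. The median log2FC of the 10 genes was -0.20 without pig 8. Without the 6 pigs whose Y chromosome counts went against their label, neither ND3 (-0.41, edgeR unadjusted p = 0.110) nor ND5 (-0.15, edgeR unadjusted p = 0.548) kept that p, while ND1, ND2 and COX2 reached it (-0.94, -0.59 and -0.40, edgeR unadjusted p = 0.0326, 0.0129 and 0.0383), beside 2.19% of all genes then tested. COX1 was then at -0.17, ATP6 at -0.05 and ND4 at 0.15. That setting kept pigs 1, 2, 4 and 6 of the high and only pigs 11 and 12 of the low IMF group. It thus kept pigs 1 and 2, whose balance of mitochondrial genes stood apart, and left out pig 10. In 12 pigs the groups did not overlap for 0 of the 10 genes, beside 0.400% of all genes tested that were lower in every low IMF pig than in any high IMF pig.

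Without pigs 1, 2 and 10, a choice made after the values were seen, all 10 genes had an unadjusted edgeR p of 0.05 or less, beside 8.08% of the 14410 genes then tested. The log2FC ranged from -0.65 (ND3) to -0.45 (CYTB), and the adjusted p from 0.140 to 0.222, so none was a DEG. The summed level was then 42085 to 53561 CPM in 4 high IMF pigs and 22793 to 38671 in 5 low IMF pigs. As for the share, this removed the lowest high IMF pigs and the highest low IMF pig for COX1 and ND3. It also removed the highest low IMF pig for ND1, ND2, COX2, COX3 and CYTB. For ATP6, COX3, ND4, ND5 and CYTB it removed the lowest high IMF pig. On the other side, the highest high IMF pig was removed for ND1, ND2 and CYTB. The change cannot be read apart from that choice for any of the 10 genes.

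**Figure D3:**
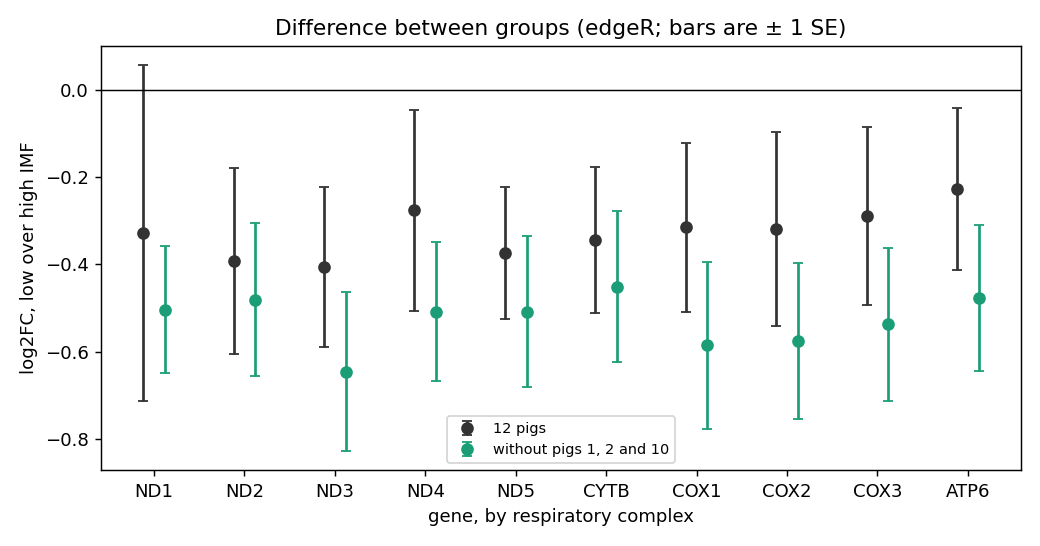
log2FC, low over high IMF, of each gene by edgeR with bars of ± 1 SE, in 12 pigs (black) and without pigs 1, 2 and 10 (green). All points lie below 0, from -0.41 to -0.23 in 12 pigs and from -0.65 to -0.45 without pigs 1, 2 and 10, of which several values lay near the other group.

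The balance among the mitochondrial genes split the pigs in a way that crossed the IMF groups. As a percentage of the summed count of the 10 genes, ND1 made up 4.06% in pig 1, 2.87% in pig 2 and 3.53% in pig 10, but 1.26% to 1.63% in the other 9 pigs. ATP8, set against the same sum, stood at 1.15%, 0.999% and 1.01% in pigs 1, 2 and 10 and at 0.143% to 0.168% in the other 9. COX2 (11.5%, 13.3% and 12.9%, against 9.43% to 10.1%), COX3 (22.4%, 21.8% and 23.1%, against 18.5% to 19.1%) and ND2 (1.97%, 2.14% and 1.63%, against 1.00% to 1.50%) were likewise higher in these pigs.

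Other genes lay on the opposite side. COX1 made up 44.8%, 47.2% and 47.3% in pigs 1, 2 and 10, against 51.1% to 54.6% in the other 9. ND4 stood at 2.91%, 2.15% and 2.20%, against 3.95% to 4.79%, and ATP6 at 2.17%, 2.01% and 2.14%, against 2.65% to 3.19%. CYTB was out of range in pig 1 only, at 6.82%, against 4.53% to 5.21% in the 9 pigs. ND5 was out of range in pig 10 only, at 1.92%, against 2.41% to 3.40%, and ND3 in pig 2 only, at 0.719%, against 0.560% to 0.697%. Pig 7 belonged to the 9 pigs. For the genes higher in the 3 pigs, the share of windows within 2 differences of a nuclear copy was 91.4% (ATP8), 64.1% (ND1), 21.9% (COX2), 19.6% (ND2) and 0.730% (COX3). It was 32.8% in COX1 and 0 in ND4 and ATP6, which were lower. The part of nuclear copies in this pattern was not tested.

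**Figure D4:**
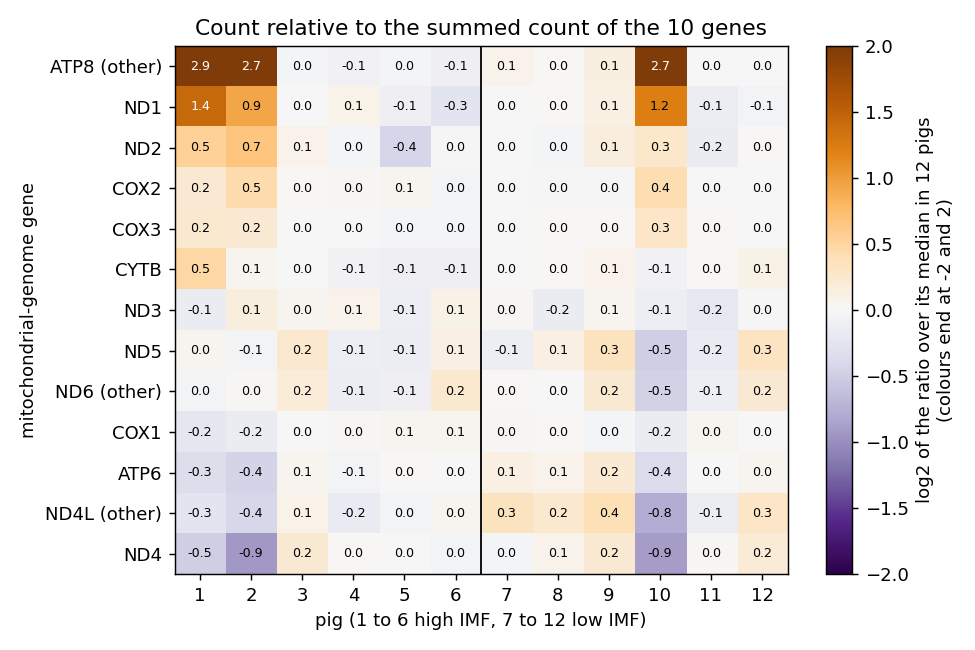
Count of each of 13 mitochondrial genes relative to the summed count of the 10 genes, as log2 of its ratio to the median of 12 pigs (rows genes, columns pigs, with the line between high and low IMF). Pigs 1, 2 and 10 share a pattern, with ATP8 at 2.7 to 2.9 and ND1 at 0.9 to 1.4 above the median and ND4 below it, and the other 9 pigs lie between -0.43 and 0.41 for every gene.

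The levels of the 10 genes varied together in most pairs, which is a description across 12 pigs that share library totals and normalization. Pearson correlations of log2 CPM over the 45 pairs had a median of 0.782 and ran from -0.267 (ND1 with ND4) to 0.987. They were below 0 in 2 pairs, ND1 with ND4 and ND2 with ND4. Over the 9 pigs without 1, 2 and 10 they ran from 0.827 to 0.998. The negative pairs therefore rest on pigs 1, 2 and 10.

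Of the other 3 protein genes, ND6, the only one encoded on the opposite strand, had a log2FC of -0.41 (SE 0.17, edgeR unadjusted p = 0.0310, adjusted p = 0.441). ND4L and ATP8 had log2FCs of -0.18 (SE 0.19) and -0.47 (SE 0.77). Rows for the mitochondrial rRNA and tRNA genes carry no symbol in the tables used here and were not analysed here.

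The nuclear genes for subunits of complexes I to V lay nearer to 0 in their medians, a difference that was not tested. The lists held 37, 4, 9, 14 and 17 subunits of complexes I to V in that order, and those that matched no row are missing from the counts, sums and ratio. Of 28 complex I, 4 complex II, 7 complex III, 11 complex IV and 10 complex V subunits tested, none had an unadjusted edgeR p of 0.05 or less in either direction, beside 5.04% (lower) and 5.38% (higher) of all genes. Their median log2FCs were -0.06, -0.03, -0.10, -0.06 and -0.09 in that order, against -0.32 for the 10 mitochondrial-genome genes, and single subunits such as NDUFA6 (-0.29) and NDUFA5 (-0.26), named after their values were seen, lay within the range of the 10. Summed, these nuclear subunits averaged 6517 ± 1215 CPM (SD, n = 6) in high IMF pigs and 6227 ± 1325 CPM (SD, n = 6) in low IMF pigs. The summed level of the 10 genes divided by that of the nuclear subunits averaged 6.74 ± 0.864 (SD, n = 6) in high IMF pigs and 5.60 ± 1.18 (SD, n = 6) in low IMF pigs. The ratio ran from 5.78 to 7.69 and from 4.42 to 7.73, the last in pig 10, so the groups overlapped. Without pigs 1, 2 and 10 the median log2FCs of the nuclear lists were -0.21, -0.27, -0.28, -0.24 and -0.30, for complexes I to V in that order, against -0.51 for the 10 genes. Then 1, 1, 2, 1 and 3 of their genes were lower at an unadjusted edgeR p of 0.05 or less, beside 8.08% of all genes. The ratio was 6.40 ± 0.890 (SD, n = 4) in high IMF pigs and 5.18 ± 0.635 (SD, n = 5) in low IMF pigs and still overlapped, from 5.78 to 7.69 and from 4.42 to 6.02.

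**Figure D5:**
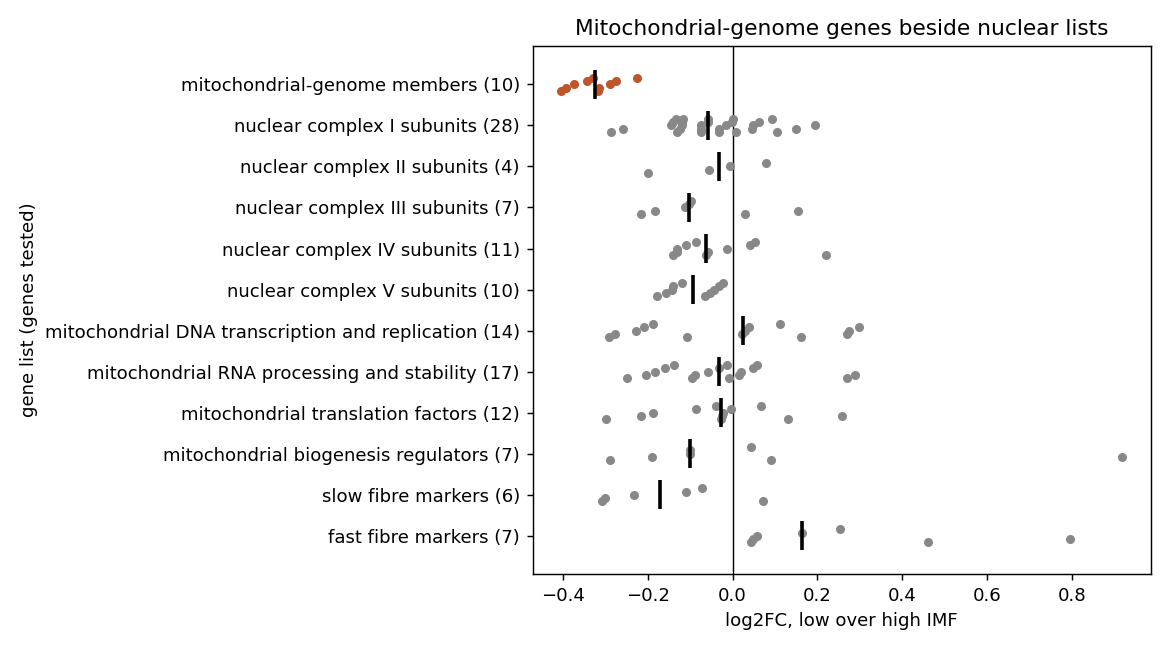
log2FC, low over high IMF, of each gene tested (points) by list, with the list's median as a black bar and the number of genes in brackets. The 10 mitochondrial-genome genes lie between -0.41 and -0.23, while the nuclear subunits of complexes I to V lie on both sides of 0 or, in complex V, between -0.18 and -0.02.

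Among 14 genes for transcription and replication of mitochondrial DNA, 1 was lower and 2 were higher in the low IMF group at an unadjusted p of 0.05 or less. Of all genes tested, 5.04% were lower and 5.38% higher at that p. POLRMT, the mitochondrial RNA polymerase, averaged 10.3 ± 1.87 CPM (SD, n = 6) in high IMF pigs and 12.7 ± 1.49 CPM (SD, n = 6) in low IMF pigs (log2FC 0.30, edgeR unadjusted p = 0.0346), and POLG, the DNA polymerase, had a log2FC of 0.27. MTERF3, a negative regulator of mitochondrial transcription, had a log2FC of -0.28 (edgeR unadjusted p = 0.0205). TFAM, which packages mitochondrial DNA and starts its transcription, stood at 43.3 ± 7.24 and 40.1 ± 4.55 CPM (SD, n = 6 each).

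Of 17 genes for RNA processing and stability, only FASTKD2, an RNA-binding protein of mitochondrial RNA granules, had an unadjusted p of 0.05 or less (log2FC -0.25, edgeR unadjusted p = 0.0258). Beside it, 5.04% of all genes tested were lower at that p. LRPPRC and SLIRP, the complex that protects mitochondrial mRNAs, had log2FCs of -0.14 (SE 0.14) and -0.01 (SE 0.11). Of 12 translation factors, the initiation factor MTIF3 was lower in every low IMF pig than in any high IMF pig, at 4.91 to 5.96 CPM against 6.00 to 7.23 (log2FC -0.30, edgeR unadjusted p = 0.00720, adjusted p = 0.419). A separation of the groups as in MTIF3 was found in 0.400% of all genes tested. The elongation factor TUFM had a log2FC of 0.26 (edgeR unadjusted p = 0.0362). So 1 of the 12 factors was lower and 1 higher at an unadjusted p of 0.05 or less, beside 5.04% and 5.38% of all genes.

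Of 7 regulators of mitochondrial biogenesis, PPARGC1A, a coactivator that raises the expression of respiratory genes, was the one with an unadjusted p of 0.05 or less, and its difference ran opposite to that of the 10 genes. It had 55.8, 115 and 144 CPM as lowest, median and highest of the high IMF group and 70.8, 190 and 392 in the low IMF group (log2FC 0.92, SE 0.35, edgeR unadjusted p = 0.0197, adjusted p = 0.434). Beside PPARGC1A, 5.38% of all genes tested were higher in the low IMF group at an unadjusted p of 0.05 or less. ESRRA, a nuclear receptor that works with PPARGC1A, had a log2FC of 0.04 (SE 0.15).

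Fibre type and cell content were read from marker lists beside these values. The lists held 11 fast and 10 slow fibre markers, of which 7 and 6 matched a row. The myosin heavy chain genes MYH1, MYH2, MYH4 and MYH7 did not, so no myosin heavy chain enters these values. Of 7 fast fibre markers tested, 7 had a log2FC above 0, with a median of 0.16, and ATP2A1, the calcium pump of fast fibres, had an unadjusted p of 0.05 or less (log2FC 0.46, edgeR unadjusted p = 0.00343). Of 6 slow fibre markers, 5 lay below 0, with a median of -0.17 and none at that p. Their summed level was 1941 to 5054 CPM in the high and 1393 to 5974 CPM in the low IMF group. Of 10 adipocyte markers none had an unadjusted p of 0.05 or less, 2 lay below and 8 above 0, with a median log2FC of 0.16, so on balance the values were higher in the low IMF group. Their sum was 415 to 582 CPM (median 488) in the high and 251 to 766 CPM (median 575) in the low IMF group. CDH5, of 4 endothelial markers tested, was higher (log2FC 0.55), and AIF1, of 8 macrophage markers, and PDGFRA, of 6 fibroblast markers, were lower (log2FC -0.46 and -0.42) in the low IMF group at that p. These 3 lists ran in both directions. Of all genes tested, 5.04% were lower and 5.38% higher in the low IMF group at that p. Of the fibroblast markers 4 lay below 0 (median -0.07), while COL1A1 (0.46) and COL3A1 (0.30) lay above. The median fibroblast sum was 1968 CPM in the high and 2252 CPM in the low IMF group. Of the macrophage markers 6 lay below 0 (median -0.21), with CD163 at 0.25. Of the endothelial markers 1 lay below 0 (median 0.13). Of 4 blood markers none had such a p, and all 4 lay below 0, with a median log2FC of -0.59 and HBB, a haemoglobin gene, at -0.83. The median blood sum ran the other way, at 81.0 CPM in the high and 103 CPM in the low IMF group. Pig 6, which had the highest share of the 10 genes, stood apart with 653 CPM of blood markers, against 47.6 to 128 in the other 11 pigs, and with the highest macrophage marker sum, 151 CPM against 65.5 to 135. Without pig 6 the difference of the summed share was -0.723 points. Without pigs 1, 2 and 10 the median log2FC was -0.34 for slow fibre markers, 0.09 for fast fibre markers, 0.29 for adipocyte markers and -0.81 for blood markers. That setting still held pig 6. The part of fibre type and cell content in the difference of the 10 genes was not tested.

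The genes whose levels were most like those of the 10 genes were found by the Pearson correlation, over 12 pigs, with the mean log2 CPM of the 10 genes, among 11824 named genes outside the mitochondrial genome. It was highest for C1orf52 (0.892), CHUK (0.890), AS3MT (0.861), REEP3 (0.855) and BTBD1 (0.854), and lowest for MAPRE2 (-0.873), FOXO3 (-0.862), DNASE1 (-0.861), NR3C2 (-0.842) and ZDHHC9 (-0.839). None of these 10 is a respiratory subunit. The middle 95% of all genes compared ran from -0.653 to 0.675. Without pig 7 the 5 highest stood at 0.855 to 0.920, and without pigs 1, 2 and 10 at 0.830 to 0.921.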

How the data were processed

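Per the paper's methods and the labels, reads from a stranded poly(A) kit were quality trimmed (Trimmomatic) and aligned with HISAT2 to Sus scrofa 11.1. Gene counts were taken with HTSeq, and StringTie was run for known transcripts. What the authors deposited is a table of counts, 1 row per Ensembl gene and 1 column per pig. In every pig the total exceeded the number of input reads in the study's mapping summary. How that came about is not given in the sources used here, and its bearing on the shares was not tested. The annotation release, the strand setting and the treatment of reads that align to several places or to 2 genes are not given in the sources used here.

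Pigs were grouped by their labels. The main test was edgeR's quasi-likelihood test (edgeR 4.0.16, R 4.3.3) after filterByExpr and TMM, with the group as the only term and Benjamini-Hochberg adjustment over 14262 genes. Log2 CPM used a prior count of 2. The self-test used simulated counts with 200 changed genes. Totals of 131048805 to 178013997 counts make counting error small beside the spread between pigs (common biological coefficient of variation 0.332). Alternatives were DESeq2 1.42.0, limma-voom (limma 3.58.1), other scalings, filters and covariates, and pigs left out. Symbols came from a gene name table that matched 14857 rows. Sequences, coordinates and gene lengths are those of RefSeq on Sscrofa11.1, searched with BLAST+ 2.17.0 and summarised with pandas 2.3.3 and numpy 2.4.6 under Python 3.11.15.

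The 10 genes were chosen by name, as said above, but they and the lists were chosen with earlier results of these data known. Named beside the 10 genes are the other 3 mitochondrial protein genes, up to 2 genes per list and direction with the smallest unadjusted p at or under 0.05, TFAM, POLRMT, LRPPRC, SLIRP, PPARGC1A and ESRRA, and the 5 genes most and least like the 10 genes.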

Additional observations from a re-analysis of the deposited data

Results flagged for a closer look

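Among 28 sets of 6 values examined (13 mitochondrial protein genes and the summed share, in each IMF group), 3 held a pig far from the others by Dixon's ratio, which has a critical value of 0.625 for 6 samples, and chance gives about 1 in 20. All 3 were pig 10 of the low IMF group. Its ND1 level was 1809 TMM-normalized CPM, against 579 in the nearest low IMF pig (ratio 0.841). Its COX2 level was 6630 CPM, against 3771 (ratio 0.643). Its ATP8 level was 520 CPM, against 62.1 (ratio 0.944). ND1, COX2 and ATP8 are not independent readings, since they come from the same transcripts and the same pig. In the high IMF group, where both pig 1 and pig 2 lay far from the other 4 in ND1 and ATP8, no value met that limit.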

How the results depend on the processing

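None of the 10 genes was a DEG in 12 pigs or under any of the 26 alternatives. Of the 260 alternative log2FC values of the 10 genes, 259 lay below 0. The exception was ND4, at 0.15 without the 6 pigs whose Y chromosome counts went against the label. Of the pigs kept there, pigs 1, 2, 4 and 6 with high IMF had 1089, 780, 1728 and 2115 CPM of ND4. Pigs 11 and 12 with low IMF had 1538 and 1618 CPM, all as normalized over 12 pigs. The sign there rests on these pigs, and the cause of their levels was not tested. In that setting ND3 and ND5 had an unadjusted p above 0.05. The number of the 10 genes with an unadjusted p at or under 0.05 was 2, beside 5.04% of all genes tested that were lower in the low IMF group. It became 4 with total counts only, beside 536 of 14262 genes lower in the low IMF group at that p. With labelled sex and with labelled age as a covariate it became 1 each, beside 686 and 684 of 14262 genes. Without pigs 1, 2 and 10 it became 10, beside 8.08% of the genes then tested. It ran from 0 (without pigs 3, 6, 8 or 9) to 8 (without pig 10) when each pig was left out, beside the shares of all genes given above. DEGs among all genes numbered 0, became 58 and 65 by DESeq2's Wald test with the edgeR filter and with no filter, and 1 without pigs 1, 2 and 10, and ran from 0 to 1 when each pig was left out. The median log2FC of the 10 genes was -0.32, -0.51 without pigs 1, 2 and 10, and ran from -0.48 (without pig 10) to -0.20 (without pig 8). The difference of the summed share ran from -1.14 to -0.696 points when each pig was left out. No paired analysis was possible because the 2 groups share no pig numbers. Leaving out pigs 1, 2 and 10, for the 10 genes and the lists, and the row without a symbol, was chosen after seeing the data.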
